A study of Mus musculus with 16 samples.

Results

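The interleukin 1 (IL-1) family and its ST2 arm were followed through 9 genes in flexor tendon of C57BL/6J (C57) and MRL/MpJ (MRL) mice. Il1rl1, which encodes ST2, was taken for its large rise in injured MRL tendon, and its ligand gene Il33, the IL-1 ligands Il1a and Il1b, the receptors Il1r1, Il1r2 and Il1rap, the receptor antagonist Il1rn and the related ligand Il18 were taken with it as members of the same family. All 9 are among the 49568 genes of the count table. C57 is a common inbred laboratory strain, and MRL is an inbred strain known for healing several tissues with little scarring. Each of the 4 groups held 4 libraries from single tendons of different male mice, aged 9 to 11 weeks, none carrying a transgene: uninjured C57, C57 at 7 days post-injury (dpi), uninjured MRL and MRL at 7 dpi. The injury was a partial cut through the deep flexor tendon of a hind paw digit, and the sheath and tissue around the tendon were left on the sample. The methods describe ketamine and xylazine for the surgery and buprenorphine after it, so these drugs cannot be told apart from the injury. Uninjured libraries are named by their replicate number, and injured libraries by the animal names of the labels, which run from BI-181 to BI-185 in C57 (no BI-182) and from BI-270 to BI-275 in MRL (no BI-271 or BI-273).

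Cytokines of the IL-1 family are released by damaged or activated cells and signal through paired receptor chains to MyD88, IRAK kinases and NF-kB. IL-1α and IL-1β bind IL-1R1, IL-1Ra occupies the same receptor without signalling, and IL-1R2 is a decoy. IL-33 is a nuclear protein of stromal and barrier cells that acts as an alarm signal when cells are damaged. It binds ST2, and ST2 and IL-1R1 share the second chain IL-1RAP. ST2 is known from mast cells, group 2 innate lymphoid cells and regulatory T cells, and a shorter soluble form of it is made by stromal cells and blocks IL-33. Gene counts do not separate these forms.

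Levels are given as CPM, the reads of a gene scaled to a fixed library size. The total count on genes was between 12552424 and 23741648 a library and was highest in the injured MRL group (18524170 to 23741648), and 3 counts, taken as the detection floor, correspond to 0.126 to 0.241 CPM. The summed tenocyte markers, among them Scx, Tnmd and Col1a1, were at 7989 CPM or more in every library. A few libraries stood apart. Uninjured C57 replicate 4 correlated with the others of its group at a Spearman rho of 0.799 to 0.834, and its keratinocyte markers summed to 76742 CPM, against at most 569 CPM in any other library. BI-181 held 48169 CPM of skeletal muscle markers. Uninjured MRL replicate 4 and BI-275 correlated with the others of their groups at 0.932 to 0.941 and 0.928 to 0.938. Uninjured C57 replicate 3 held 143 CPM of neutrophil markers. Where a result of the family turns on 1 of these libraries, its value without that library is given. In whole tissue, fewer cells of a type and less RNA per cell cannot be told apart.

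Il1rl1 lies at chr1:40429570-40465415 on the plus strand of GRCm38, with 6894 exonic bases, and 5 annotated transcripts of which some end early, at 40448148 or before, and the others at 40465396 or after. Its promoter windows are shown because Il1rl1 is the gene the family was taken for, and those of Il1rn and Il1b because these genes were called after injury in MRL. The windows are RefSeq's for GRCm38.p6, from 250 bases before to 50 bases after a transcript start. All 9 genes matched a window, some of them several. Capitals mark matches, on either strand, to a GATA motif (AGATAA or TGATAA), which 18.6% of 32851 mouse windows hold, to an AP-1 motif (TGANTCA), which 7.81% hold, or to an NF-kB core (GGANTTTCC), which 1.25% hold. The first NF-kB motif searched, the same core with another G in front, matched no window of these 9 genes, and the match marked here rests on shortening it afterwards. The PU.1 motif GAGGAAGT (3.2% of windows) was found in no window of these 9 genes. The upstream Il1rl1 window, chr1:40429320-40429619 on the plus strand, holds 2 GATA matches and the downstream window, chr1:40439379-40439678, holds 1 GATA match and 1 NF-kB core match. The first Il1rn window, chr2:24336610-24336909 on the plus strand, holds 1 AP-1 match, and the Il1b window, chr2:129371090-129371389 on the minus strand, holds none of these motifs. Among the windows not printed, that of Il1a holds 1 AP-1 match, that of Il1r2 1 GATA match, and the rest none.
Il1rl1 upstream window: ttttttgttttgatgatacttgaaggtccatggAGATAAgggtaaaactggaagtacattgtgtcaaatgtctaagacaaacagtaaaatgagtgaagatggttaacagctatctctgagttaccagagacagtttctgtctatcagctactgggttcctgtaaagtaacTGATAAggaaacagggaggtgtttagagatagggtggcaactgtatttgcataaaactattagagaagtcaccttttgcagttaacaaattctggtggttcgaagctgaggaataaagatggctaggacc
Il1rl1 downstream window: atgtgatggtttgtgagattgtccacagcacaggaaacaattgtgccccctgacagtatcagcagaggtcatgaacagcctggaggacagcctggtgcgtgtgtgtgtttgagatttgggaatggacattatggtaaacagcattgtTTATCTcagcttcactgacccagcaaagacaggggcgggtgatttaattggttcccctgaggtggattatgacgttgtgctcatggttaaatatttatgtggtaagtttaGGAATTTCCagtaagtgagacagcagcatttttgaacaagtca
Il1rn first window: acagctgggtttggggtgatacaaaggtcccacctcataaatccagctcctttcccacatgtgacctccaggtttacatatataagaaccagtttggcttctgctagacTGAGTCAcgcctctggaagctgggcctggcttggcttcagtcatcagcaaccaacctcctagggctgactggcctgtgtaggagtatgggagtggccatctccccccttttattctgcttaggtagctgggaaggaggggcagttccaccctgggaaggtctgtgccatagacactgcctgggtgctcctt
Il1b window: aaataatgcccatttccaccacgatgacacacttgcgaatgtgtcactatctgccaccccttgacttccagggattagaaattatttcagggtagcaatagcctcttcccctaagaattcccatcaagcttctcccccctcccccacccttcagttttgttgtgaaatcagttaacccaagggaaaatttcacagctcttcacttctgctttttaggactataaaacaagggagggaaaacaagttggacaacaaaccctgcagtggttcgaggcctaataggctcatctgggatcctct

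Il1rl1 was at most 5.20 CPM in uninjured tendon of either strain and between 4.83 and 181 CPM after injury. In uninjured MRL tendon its level was 0.730, 1.23, 0.358 and 0 CPM in replicates 1 to 4, and in injured MRL tendon it was 113 (BI-270, 2700 reads), 181 (BI-272), 35.1 (BI-274) and 122 CPM (BI-275). No injured MRL library came near any uninjured one. The fitted log2 fold change was 7.58 (SE 0.73), which is the contrast the gene was chosen on and is given as a description without a test.

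In C57, whose libraries did not enter that choice, Il1rl1 was at 1.01, 0.519, 0.155 and 5.20 CPM in uninjured replicates 1 to 4 and at 9.56, 38.9, 48.9 and 4.83 CPM in the injured libraries in order of name (BI-181 first, BI-185 last). The groups overlapped through 1 pair of libraries, uninjured replicate 4 and BI-185. The log2 fold change of 3.82 (SE 1.12) did not pass the edgeR quasi-likelihood test (adjusted p = 0.164), in which a call needs an adjusted p under 0.05 with a log2 fold change beyond 1 either way, as reached by 1.07% of all 14424 tested genes. Without uninjured replicate 4, the library with keratinocyte RNA, the log2 fold change was 5.42 with an adjusted p of 0.022 (edgeR), and 5.01% of 14983 genes were called. DESeq2 called the gene on all 8 libraries at a log2 fold change of 3.87 (adjusted p = 0.00257), with 5.35% of genes called.

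Across the 4 groups the order of Il1rl1 levels was injured MRL (113 ± 59.7 CPM, SD, n = 4), injured C57 (25.6 ± 21.7 CPM), uninjured C57 (1.72 ± 2.35 CPM) and uninjured MRL (0.579 ± 0.525 CPM). The uninjured C57 mean rests on replicate 4 and was 0.561 ± 0.428 CPM without it (n = 3), so that the last 2 groups then changed places. Each neighbouring pair in that order overlapped, and at the top the lowest injured MRL library (BI-274, 35.1 CPM) was below the highest injured C57 library (BI-184, 48.9 CPM). The difference between injured strains was 2.12 on the log2 scale (SE 0.73) and that between the strains' injury responses 3.70 (SE 1.41), both as descriptions. Without uninjured C57 replicate 4 the latter was 2.11.

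**Figure D1:**
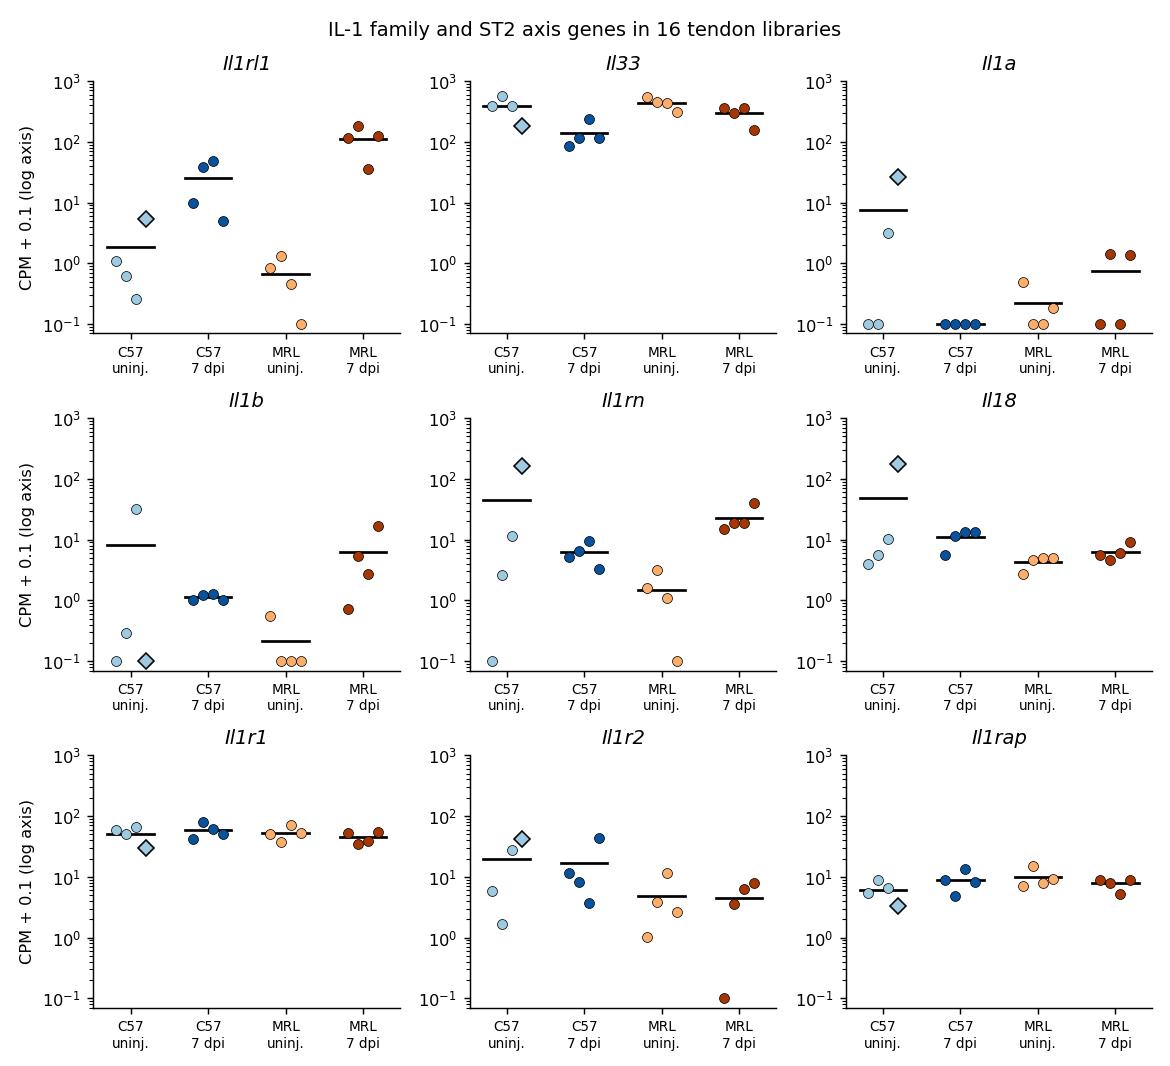
Level of each gene in the 16 libraries, as CPM + 0.1 on a log axis, with points for libraries, lines for group means, and a diamond for uninjured C57 replicate 4, whose keratinocyte markers were high. Il1rl1 is at 35.1 to 181 CPM in injured MRL tendon and at most 1.23 CPM in uninjured MRL tendon, while Il1r1 stays between 29.3 and 78.3 CPM in all 16 libraries.

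Il33, the ligand of ST2, lies at chr19:29925114-29960718 on the plus strand and was the most abundant of the 9 genes per length of transcript. In uninjured C57 tendon it was at 389, 566, 392 and 179 CPM in replicates 1 to 4, and in injured C57 tendon at 83.8 (BI-181), 113 (BI-183), 240 (BI-184) and 114 CPM (BI-185). Every injured library was below uninjured replicates 1 to 3, as was so for 10.1% of tested genes, and only uninjured replicate 4 lay within the injured range. The log2 fold change of −1.52 (SE 0.41) did not pass the edgeR test on all 8 libraries (adjusted p = 0.134). Without uninjured replicate 4 it passed, at −1.75 (SE 0.33, adjusted p = 0.0188, edgeR), as it did with DESeq2 (−1.46, adjusted p = 0.0195) and in 1 edgeR fit over all 16 libraries (adjusted p = 0.0477, with 2.3% of genes called).

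In MRL tendon Il33 was at 554, 457, 437 and 304 CPM in uninjured replicates 1 to 4 and at 357 (BI-270), 294 (BI-272), 366 (BI-274) and 159 CPM (BI-275) after injury. The groups overlapped, and the log2 fold change of −0.57 (SE 0.27) did not pass the edgeR test (adjusted p = 0.188). Between the injured groups Il33 was 1.08 higher in MRL on the log2 scale (SE 0.36, adjusted p = 0.125, edgeR), and leaving out BI-184, the injured C57 library with the most Il33, gave 1.48 with an adjusted p of 0.0459. DESeq2 called this difference at 1.08 (adjusted p = 0.0422), with 8.54% of genes called. The difference between the strains' responses was 0.90 (SE 0.52) and was not called (adjusted p = 0.517, edgeR interaction over 16 libraries).

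Il1b and Il1rn, the genes of IL-1β and of its receptor antagonist, rose after injury in MRL tendon. They are 2 of the 7 genes other than Il1rl1 that could be tested there, and 7.41% of all 14274 tested genes were called (5.25% as higher). Only genes that passed an expression filter were tested, and Il1b passed it only through its injured libraries, where it was high. The call of Il1b is therefore no independent count among the 7. Il1b, at chr2:129364570-129371139 on the minus strand, was at 0.465 CPM in uninjured MRL replicate 1 (7 reads) and at 0 in replicates 2 to 4. In injured MRL tendon it was at 0.631 (BI-270), 5.22 (BI-272), 2.60 (BI-274) and 16.7 CPM (BI-275). The groups did not overlap, as was the case for 13.5% of tested genes in the same direction. For a gene this low in uninjured tendon the filter fixed that separation in advance, so it adds nothing to the call. The lowest injured library had only 15 reads.

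The log2 fold change of Il1b in MRL was 5.66 (SE 1.45, adjusted p = 0.0327, edgeR), a size that depends on the handling of zeros. Its adjusted p was between 0.0318 and 0.0919 over the fits that left out 1 library each, and the call was lost without uninjured replicate 2, 3 or 4 or without BI-272 or BI-275, and in 1 fit of all 16 libraries (adjusted p = 0.114). Its log2 fold change over the former fits was 4.50 (without BI-275) to 9.87 (without uninjured replicate 1). Between injured strains Il1b was 2.56 higher in MRL on the log2 scale (SE 0.86, adjusted p = 0.13, edgeR) and 1.48 higher without BI-275. DESeq2 called this difference at 2.59 (adjusted p = 0.0192). BI-275, the library with the most Il1b, also had the highest neutrophil marker sum of the injured MRL group (30.5 CPM, against 4.24 to 10.7 CPM in the other 3 libraries). Over the 7 neutrophil markers the sum was 0.0664 to 2.74 CPM in uninjured and 4.24 to 30.5 CPM in injured MRL tendon, with Ly6g alone at 0 after injury, and neither of the 2 testable markers was called. The part of neutrophils in this value was not tested.

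In C57 tendon Il1b was at 0, 0.195, 32.3 and 0 CPM in uninjured replicates 1 to 4 and at 0.931, 1.11, 1.17 and 0.924 CPM in the injured libraries. A single uninjured library, replicate 3, held nearly all uninjured reads (418), and it was also the library with 143 CPM of neutrophil markers. The log2 fold change of −3.01 (SE 1.93) was not called (adjusted p = 0.496, edgeR) and was 3.78 without replicate 3. Il1bos, a gene on the opposite strand, shares 25 exonic bases with Il1b, and the strand setting of the counting is not given in the sources used here.

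Il1rn lies at chr2:24336853-24351494 on the plus strand. In MRL it was at 1.53, 3.10, 1.02 and 0 CPM in uninjured replicates 1 to 4 and at 14.8 (BI-270), 18.8 (BI-272), 18.4 (BI-274) and 40.3 CPM (BI-275) after injury. The groups were fully separated, with a log2 fold change of 4.03 (SE 0.81, adjusted p = 0.0124, edgeR). The call held in 8 of 8 fits that left out 1 library (adjusted p 0.00747 to 0.0415) and was lost in 1 fit over all 16 libraries (adjusted p = 0.131).

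In C57, Il1rn was at 0, 2.53, 11.3 and 163 CPM in uninjured replicates 1 to 4 and at 5.15, 6.42, 9.48 and 3.20 CPM after injury. The high value was that of replicate 4, with its keratinocyte markers. The log2 fold change was −2.92 (SE 1.66, adjusted p = 0.441, edgeR) and 0.35 without that library. Between injured groups Il1rn was 1.90 higher in MRL on the log2 scale (SE 0.42, adjusted p = 0.0355, edgeR), every MRL library being above every C57 library, as for 8.05% of tested genes. It was 1 of 7 testable genes called in that comparison, in which 3.43% of 14626 genes were called (1.55% as higher in MRL). The call was lost in 6 of 8 fits that left out 1 library (without BI-181, BI-183, BI-185, BI-272, BI-274 or BI-275), over which the adjusted p was 0.0404 to 0.091 and the log2 difference 1.55 to 2.19.

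Il1a, the other IL-1 ligand and an alarm signal of epithelia, was below the filter of the edgeR comparisons of 2 groups. It had 39 and 403 reads in uninjured C57 replicates 3 and 4 (3.02 and 26.5 CPM) and 0 in replicates 1 and 2. All 4 injured C57 libraries were at 0, so that the mean level was at least 37.9-fold lower there than in uninjured C57 tendon when set against 3 counts a library. That mean rests on replicate 4, without which the bound, set after seeing the data, was at least 5.16-fold. DESeq2 called Il1a in C57 (adjusted p = 9.97e-10) and edgeR without a filter did not (adjusted p = 0.433). In MRL it was at most 0.398 CPM in uninjured tendon and in injured tendon at 1.32 CPM in BI-272, 1.28 CPM in BI-275 and 0 in the other 2 libraries.

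Il18, a ligand of the family that inflammasomes activate, was at 3.83, 5.51, 10.1 and 177 CPM in uninjured C57 replicates 1 to 4 and at 5.46, 11.2, 13.5 and 13.5 CPM after injury. Its log2 fold change of −2.23 (SE 1.20, adjusted p = 0.414, edgeR) turned to 0.70 without replicate 4. In MRL it was at 2.65 to 4.84 CPM in uninjured and 4.49 to 9.09 CPM in injured tendon (log2 fold change 0.58, SE 0.42, adjusted p = 0.406, edgeR). Il18 was therefore called in neither strain.

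The signalling receptor Il1r1 stayed within 29.3 to 78.3 CPM over the 16 libraries. Its mean was 51.3 CPM (29.3 to 66.7) in uninjured and 58.2 CPM (42.2 to 78.3) in injured C57 tendon, and 52.6 ± 14.2 and 45.8 ± 10.1 CPM in the MRL groups (SD, n = 4). The log2 fold changes were 0.13 (SE 0.29, adjusted p = 0.877) in C57 and −0.19 (SE 0.23, adjusted p = 0.63) in MRL by edgeR. The shared second chain Il1rap was at 3.16 to 14.9 CPM over all 16 libraries, with log2 fold changes of 0.54 (SE 0.46, adjusted p = 0.622) and −0.34 (SE 0.36, adjusted p = 0.581). Of its 11360 exonic bases, 552 overlap Gm20319 on the other strand.

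The decoy receptor Il1r2 was scattered within every group, from 1.56 to 41.9 CPM in uninjured C57, 3.57 to 43.2 CPM in injured C57, 0.929 to 11.7 CPM in uninjured MRL and 0 to 7.92 CPM in injured MRL tendon. Its injury log2 fold changes were −0.27 (SE 1.00) and −0.10 (SE 1.13). The strain difference was −2.06 (SE 1.02) in uninjured and −1.95 (SE 1.14) in injured tendon, and neither was called (adjusted p 0.649 and 0.358, edgeR).

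**Figure D2:**
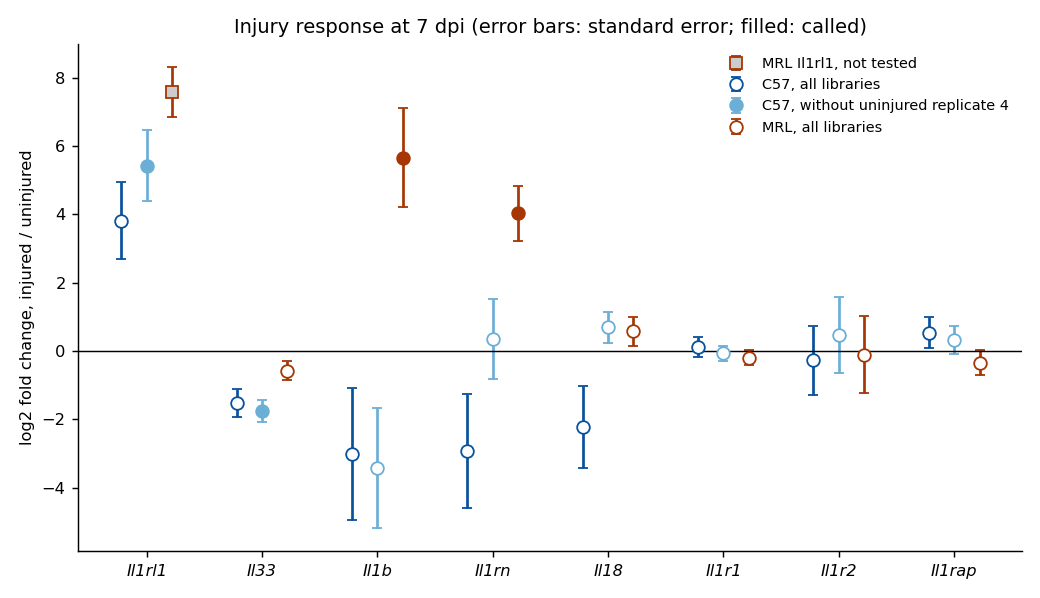
Injury log2 fold change of 8 genes at 7 dpi with standard errors, in C57 on all libraries, in C57 without uninjured replicate 4, and in MRL, where filled circles are called, open circles are not, and the grey square is the untested MRL value of Il1rl1. Without uninjured replicate 4 the C57 values of Il1rn and Il18 move from −2.92 and −2.23 to 0.35 and 0.70, while Il1rl1 and Il33 become called.

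In C57 none of the 7 testable genes other than Il1rl1 was called after injury by edgeR, 1 (Il33) had an unadjusted p under 0.05, and DESeq2 called Il33 and Il1a. The uninjured strains were not told apart by any of the 6 testable genes, 2 of which (Il1rn and Il18) had an unadjusted p under 0.05. The MRL minus C57 differences of Il1rn and Il18 were −5.01 and −3.60 on the log2 scale (adjusted p 0.622 and 0.621, edgeR). These differences were −1.71 and −0.63 without uninjured C57 replicate 4, and DESeq2 gave no adjusted p for either. No gene of the whole table was called there by edgeR (0% of 14055, with 1106 at an unadjusted p under 0.05), against 104 by DESeq2 (0.65%). The interaction of strain and injury was called for none of the 8 genes other than Il1rl1 (0% of 15947 genes called by edgeR, with 1939 at an unadjusted p under 0.05). Of these 8 genes 4 had an unadjusted p under 0.05 (Il1a, Il1b, Il1rn and Il18). The fitted interaction of Il1b went from 8.60 to 1.81 without uninjured C57 replicate 3, and those of Il1rn and Il18 from 6.88 to 3.62 and from 2.75 to −0.18 without replicate 4. DESeq2, which called 1.16% of all genes, called Il1a, whose injured C57 libraries were all at 0.

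Set per kilobase of exon, Il33 led in all 4 groups, with 132 ± 54.9 and 47.7 ± 24.1 CPM per kb in uninjured and injured C57 tendon and 152 ± 35.7 and 102 ± 33.1 CPM per kb in MRL. Il1rl1 was at 0.250 ± 0.340 CPM per kb in uninjured C57 tendon, where its mean and those of Il1a, Il1b, Il1rn and Il18 rest on single libraries and give no firm order, and at 0.0840 ± 0.0761 CPM per kb in uninjured MRL tendon. After injury it ranked 5th in C57 (3.71 ± 3.15 CPM per kb) and 2nd in MRL (16.4 ± 8.67 CPM per kb), above Il1r1 (7.19 ± 1.58 CPM per kb). The MRL ranges of Il1rl1 (5.09 to 26.2 CPM per kb) and Il1r1 (5.51 to 8.74 CPM per kb) overlapped in BI-274. In uninjured MRL tendon Il1r1 was second at 8.27 ± 2.23 CPM per kb. Ranks 2 to 4 of the C57 groups, held by Il18, Il1r1 and Il1r2, differed by less than their spread.

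Il1rl1 stands in a row of 6 receptor genes on chromosome 1, in the order Il1r2, Il1r1, Il1rl2, Il1rl1, Il18r1 and Il18rap, and its neighbours were read for comparison. Il1rl2, the IL-36 receptor that ends 62.0 kb before Il1rl1 starts, was at 4.31 ± 3.44 and 6.48 ± 5.78 CPM in uninjured and injured MRL tendon (log2 fold change 0.60, SE 0.80, adjusted p = 0.67, edgeR). Il18r1, which begins 137 bases after Il1rl1 ends, had at most 35 reads in a library and was below the edgeR filter in both strains. DESeq2 did not call it (adjusted p 0.969 in C57 and 0.148 in MRL). Il18rap, the accessory chain of the IL-18 receptor, was at 0 in all uninjured MRL libraries and at 8.28 (BI-270), 3.72 (BI-272), 0.794 (BI-274) and 8.86 CPM (BI-275) after injury. It was called in MRL (adjusted p = 0.0084, edgeR) and its mean was at least 25.9-fold higher than 3 counts a library in the uninjured group. With every uninjured MRL library at 0, Il18rap passed the expression filter only through its injured libraries. In C57 it was at 0.461 ± 0.879 and 2.69 ± 1.78 CPM and was not called (adjusted p = 0.46, edgeR). Of the 5 genes of the row other than Il1rl1, which was chosen on this contrast, Il1r2, Il1r1, Il1rl2 and Il18r1 overlapped between the MRL groups. Il18rap was higher in every injured than in any uninjured MRL library, as for 13.5% of all tested genes. That separation was fixed once Il18rap passed the filter, so it does not set the gene apart from its neighbours.

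**Figure D3:**
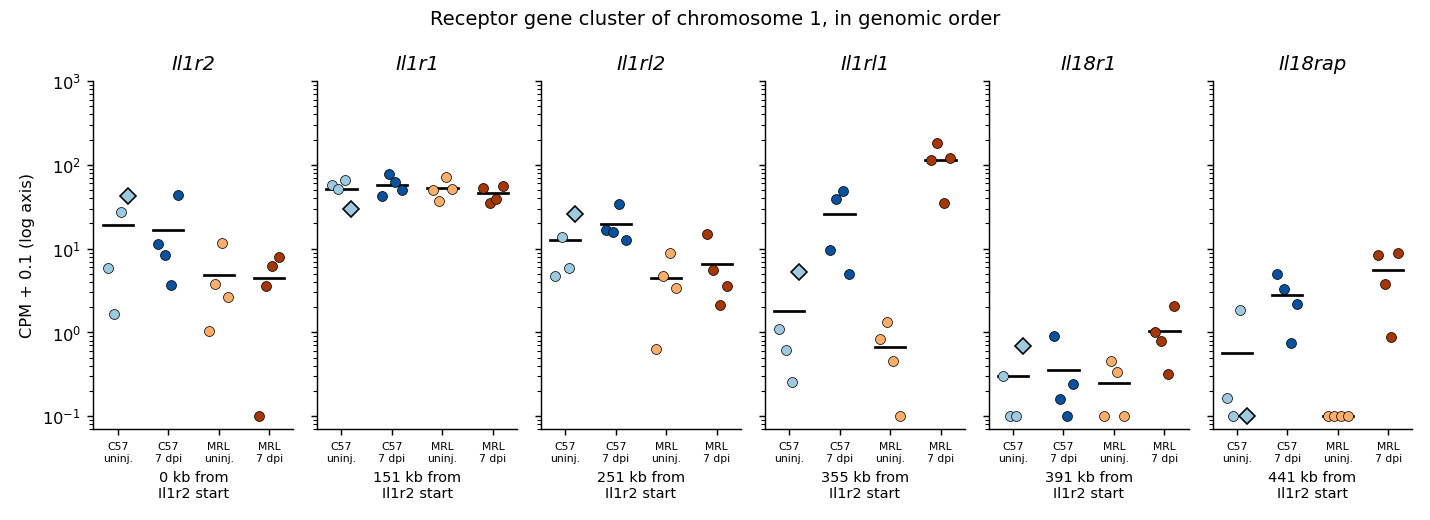
Level of the 6 receptor genes of the cluster in the 16 libraries, as CPM + 0.1 on a log axis, in genomic order with the distance of each start from the Il1r2 start below each panel, lines for group means and a diamond for uninjured C57 replicate 4. Il1rl1 and Il18rap are higher in all 4 injured MRL libraries than in the uninjured MRL libraries, and Il1r1 overlaps between all groups.

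The rest of the pathway was read through gene lists, each described by its counts. The shares of all tested genes called by edgeR, against which they are read, are 7.41% in MRL, 1.07% in C57 and 5.01% in C57 without uninjured replicate 4. The lists were chosen with earlier results of these data known, so counts above these shares are descriptions and no test of a list. Some genes near 0 in uninjured tendon also passed the expression filter only through their injured libraries. Of 5 further IL-1 family ligands in the table, the IL-36 genes and their relatives, none passed the edgeR filter in enough libraries to be tested after injury. Their means were highest in uninjured C57 tendon, the group with the library high in keratinocyte markers, but the SD exceeded each mean there. Il1f5 was at 165 ± 314 CPM (0 to 636) and Il1f6 at 52.8 ± 101 CPM (0 to 204) over its 4 libraries. This order of groups is therefore not firm. Il1f6 was at 0 in all 8 injured libraries. Of 7 further receptors and binding proteins, 4 could be tested in MRL. Il18rap alone was called, and it passed the filter only through its injured libraries. Sigirr, an inhibitory receptor, and Il18bp, which binds IL-18, had MRL log2 fold changes of 2.91 (adjusted p = 0.185) and 1.31 (adjusted p = 0.235) by edgeR.

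None of the 20 adaptor and kinase genes, among them Myd88, Irak1, Irak4 and Traf6, was called after injury in either strain by edgeR, against 4 in MRL and 2 in C57 at an unadjusted p under 0.05, and DESeq2 called 1 in each strain (Traf6 in MRL, Map3k8 in C57). Their median log2 fold change was −0.10 in MRL and −0.13 in C57, with −0.03 and −0.05 over all tested genes. Myd88 itself was at 45.7 ± 8.80 and 52.1 ± 7.13 CPM in uninjured and injured MRL tendon. Irak3, which encodes an inhibitory kinase-like protein, was 1.48 lower in injured MRL than in injured C57 tendon on the log2 scale (SE 0.28, adjusted p = 0.0177, edgeR), at 22.4 ± 7.99 against 62.0 ± 7.43 CPM. It was the only 1 of the 20 called in that comparison. With 3.43% of all genes called there, this count is near the background. The call held in 5 of 8 fits that left out 1 library, with adjusted p of 0.0134 to 0.0656.

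Of 15 NF-kB subunits and inhibitors, 2 were called as higher in MRL and none in C57 by edgeR (2 in C57 at an unadjusted p under 0.05, and 0 by DESeq2). With 7.41% of all genes called in MRL, 2 of 15 is close to the background. Nfkb2, a subunit of the alternative arm, rose by 1.09 on the log2 scale (SE 0.25, adjusted p = 0.0203) and Nfkbie, an inhibitor, by 1.59 (SE 0.41, adjusted p = 0.0344). Of the fits that left out 1 library, 4 of 8 kept Nfkb2 and 2 of 8 kept Nfkbie, with adjusted p up to 0.0617 and 0.0954, and neither was called in 1 fit over all 16 libraries. Of 17 inflammasome and processing genes in the table, 13 could be tested in MRL. Casp8 rose by 1.18 (SE 0.20, adjusted p = 0.00605, edgeR), Casp4, the caspase of the non-canonical inflammasome, by 1.85 (adjusted p = 0.039) and the adaptor Pycard by 1.29 (adjusted p = 0.0443), and Txnip fell by 1.34 (adjusted p = 0.0332). Casp8 kept its call in 8 of 8 fits that left out 1 library, Casp4 in 2, Pycard in 1 and Txnip in 3. Casp1, which cleaves the precursors of IL-1β and IL-18, was at 7.19 ± 2.86 and 19.9 ± 13.7 CPM and was not called (log2 fold change 1.48, adjusted p = 0.112, edgeR).

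In C57 only Casp8 of 12 testable inflammasome and processing genes was called on all libraries (log2 fold change 1.34, SE 0.21, adjusted p = 0.0248, edgeR), and the call was kept in 2 of 8 fits that left out 1 library (adjusted p up to 0.106). Without uninjured replicate 4 there were 5 of 14 (Casp1, Casp8, Gsdmd, Pycard and Casp4, all higher). The C57 counts turn on which library is left out, since edgeR called between 10 and 750 genes in all over the 8 such fits.

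Genes that IL-1 is known to induce include chemokines, proteases and acute-phase proteins. In MRL 8 of 19 testable genes of 24 rose and none fell, with a median log2 fold change of 3.04. Ccl2 and Ccl7, chemokines for monocytes, were at 4.48 ± 3.33 and 3.69 ± 3.53 CPM in uninjured and at 288 ± 143 and 180.0 ± 95.8 CPM in injured MRL tendon. Their log2 fold changes were 6.03 (SE 0.65, adjusted p = 0.00119) and 5.64 (SE 0.75, adjusted p = 0.00284) by edgeR, kept in 8 of 8 fits that left out 1 library. Csf2, the cytokine GM-CSF, was at or under 3 counts in every uninjured MRL library and at 7.10 ± 4.45 CPM after injury (adjusted p = 0.00494, edgeR). It passed the expression filter only through its injured libraries. Ereg, an EGF receptor ligand, Saa3, an acute-phase protein, and the adhesion gene Vcam1 rose by 2.88, 5.59 and 3.04 (adjusted p 0.00976, 0.0165 and 0.019, edgeR), the last kept in 5 of 8 such fits and Saa3 in 7, being lost without BI-275. The remaining 2 calls were Mmp3 (5.52, adjusted p = 0.0199, 3.99 to 6.53 over such fits and kept in 7 of 8) and Lcn2 (3.05, adjusted p = 0.0491, edgeR), which was kept in 0 of 8. Il6 was at most a trace, with a group mean of 0.325 CPM or less, and was not tested.

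In C57, 2 of 16 testable genes of this list were called on all libraries. Vcam1 rose by 3.14 (SE 0.46, adjusted p = 0.0216) and Lcn2, an iron-binding antibacterial protein, by 2.85 (SE 0.48, adjusted p = 0.0353), by edgeR, and each call was kept in 2 of 8 fits that left out 1 library. Without uninjured replicate 4 there were 6 of 19 (Vcam1, Lcn2, Ccl2, Mmp3, Ccl7 and Csf2), and DESeq2 called 9. Ccl2 was at 7.34 ± 6.62 and 138 ± 106 CPM in C57, with a log2 fold change of 4.18 (adjusted p = 0.149, edgeR, on all libraries). Between the injured strains the matrix-cleaving enzyme Mmp3 alone of 21 was called, where 3.43% of all genes were, at 4.90 higher in MRL (SE 0.94, adjusted p = 0.0258, edgeR), from 28.7 ± 14.5 CPM in C57 and 197 to 2584 CPM in MRL. That call held in 4 of 8 fits that left out 1 library (adjusted p 0.00939 to 0.0892, log2 difference 3.45 to 5.31). Of the 21 genes, 20 were higher and 1 lower in MRL, with a median log2 difference of 1.70 against −0.06 over all tested genes. As the list was chosen with earlier results known, this is a description.

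A list of 20 genes of the type 2 response held the alarm cytokine Tslp as well as genes that IL-33 can set off. In MRL 9 of them could be tested and 6 were called as higher. Retnla and Ccl11 had negative log2 fold changes, −2.88 (SE 1.61) and −0.17 (SE 1.48), and were not called (adjusted p 0.28 and 0.955, edgeR). The cytokines Il4, Il5 and Il13 were at or near 0 in every group, with group means of at most 0.750, 0.0567 and 0.0162 CPM, and were not tested. Ccl17, a T cell chemokine, was at 0.0660 ± 0.0768 CPM in uninjured and 75.7 ± 98.0 CPM in injured MRL tendon (13.9 to 222 CPM, adjusted p = 0.00325, edgeR). Tslp, an epithelial and stromal alarm cytokine, went from 2.66 ± 2.27 to 71.5 ± 41.8 CPM (log2 fold change 4.75, SE 0.74, adjusted p = 0.00448, edgeR), and the receptor chains Il13ra1 and Il4ra rose by 1.46 and 1.14 (adjusted p 0.00566 and 0.0269). Chil3, a chitinase-like macrophage gene, was at 0 in all uninjured MRL libraries with a mean at least 17.0-fold higher after injury when set against 3 counts a library (adjusted p = 0.0183). Ccl17, Tslp and Il13ra1 kept their calls in 8 of 8 fits that left out 1 library, Chil3 in the 5 in which it was tested and Il4ra in 3. Chil3 and Ccl17 passed the expression filter only through their injured libraries, and Chil3 was tested only in fits where they did. The calls of Chil3 and Ccl17 are therefore no independent count among the 6. The median of the 9 was 1.46, also with Chil3 set at its bound. In C57 the median was higher, at 2.16 over 8 testable genes and at 2.69 over 9 without uninjured replicate 4. Retnla and Ccl11 had positive log2 fold changes in C57, 2.27 and 4.01 (adjusted p 0.363 and 0.0528, edgeR, on all libraries). The larger number of MRL calls thus did not go with a larger median.

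Ccl24, an eosinophil chemokine, was the type 2 gene called in C57 on all libraries (log2 fold change 2.41, SE 0.30, adjusted p = 0.0138, edgeR), and it was kept in 4 of 8 fits that left out 1 library. Without uninjured replicate 4 there were 3 of 9 (Ccl24, Ccl17 and Ccl11). Tslp was also 3.59 higher in injured MRL than in injured C57 tendon (SE 0.48, adjusted p = 0.00394, edgeR, 8 of 8 such fits), at 71.5 ± 41.8 against 5.78 ± 1.38 CPM. It was the only 1 of 10 testable type 2 genes that edgeR called in that comparison, in which 3.43% of all genes were called. Of the 10, 5 had an unadjusted p under 0.05 by edgeR, 2 higher and 3 lower in MRL. DESeq2 also called Ccl11, at 2.31 ± 1.83 CPM in injured MRL against 30.4 ± 26.6 CPM in injured C57 tendon.

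**Figure D4:**
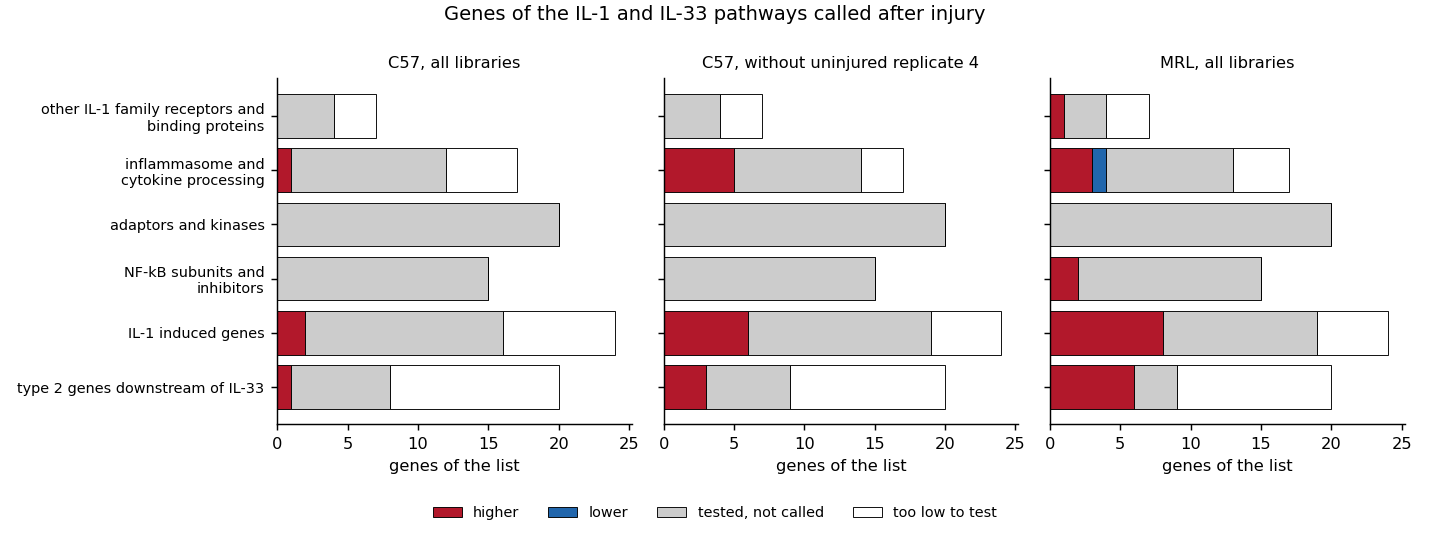
Genes of 6 lists of the IL-1 and IL-33 pathways after injury, as numbers called higher, called lower, tested without a call, and too low to test, in C57 on all libraries, in C57 without uninjured replicate 4, and in MRL. IL-1 induced genes hold 2, 6 and 8 calls and type 2 genes 1, 3 and 6, while the 20 adaptor and kinase genes hold none.

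Cells that could carry Il1rl1 were read through their markers. The 10 mast cell markers, among them Kit, Cpa3 and Mcpt4, summed to 0.210 (BI-270), 3.86 (BI-272), 102 (BI-274) and 18.8 CPM (BI-275) in injured MRL tendon. Il1rl1 in the same libraries was at 113, 181, 35.1 and 122 CPM, the values it was chosen on, and the part of mast cells in them was not tested. In injured C57 tendon the mast cell sum was 12.9 to 305 CPM, and in the uninjured groups 4.83 to 118 CPM, and none of the markers was called in either strain by edgeR (4 tested in MRL and 8 in C57). Foxp3, which defines regulatory T cells, was at 0 in both uninjured groups and in injured C57 tendon, and had 1 read in all in injured MRL tendon. The sum of the 10 regulatory T cell and innate lymphoid markers was 278 to 1328 CPM in uninjured libraries (at most 374 CPM without uninjured C57 replicate 4) and 150 to 249 CPM in injured libraries, and Il7r alone of them was called, as higher in MRL. The 5 eosinophil and basophil markers summed to at most 0.478 CPM in uninjured libraries, to 0.679 to 2.01 CPM in injured C57 and to 0 to 5.13 CPM in injured MRL tendon (highest in BI-275). Of these, Epx, Prg2 and Mcpt8 were at 0 in both injured groups, and Siglecf and Ccr3 were not.

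The 7 macrophage markers summed to 708 to 1450 CPM in the uninjured and 3388 to 7738 CPM in the injured libraries, with 5 of 7 called as higher in C57 and 3 of 7 in MRL. The 6 fibroblast markers summed to 3340 to 11898 CPM in the uninjured and 6535 to 25869 CPM in the injured libraries, with 1 of 6 called as higher in C57 (Pi16) and 2 of 6 in MRL (Col3a1 and Lum). The 6 endothelial markers summed to 16.7 to 84.0 CPM in uninjured and 93.1 to 165 CPM in injured C57 tendon, and to 0.133 to 60.8 and 0.673 to 29.5 CPM in the MRL groups, and none was called. Their part in the levels of Il1rl1, Il1b and Il1rn was not tested.

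**Figure D5:**
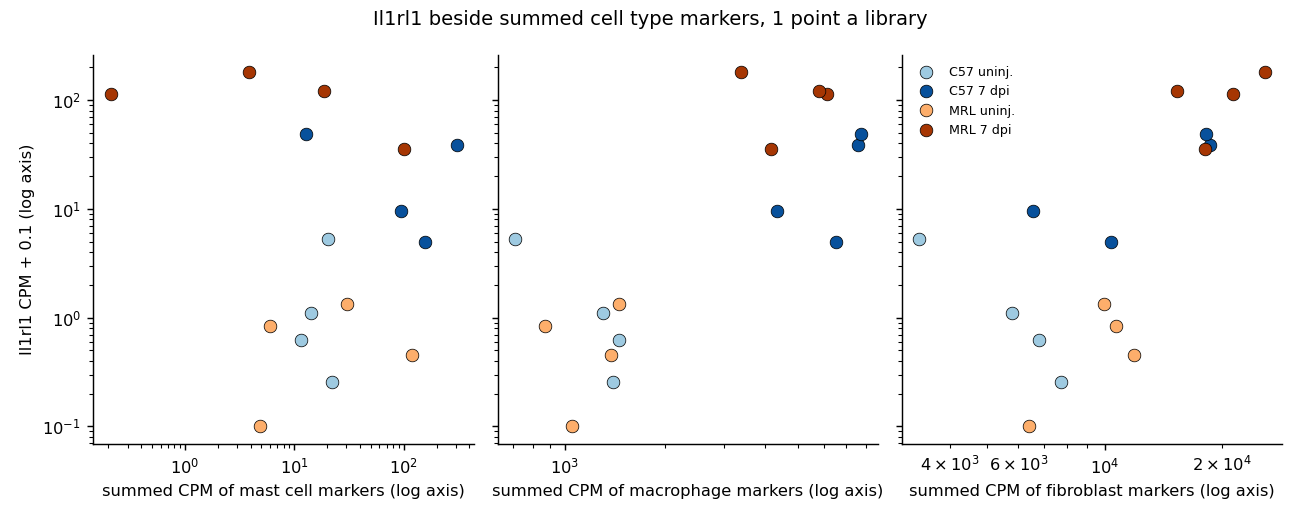
Il1rl1 level (CPM + 0.1) against the summed CPM of mast cell, macrophage and fibroblast markers, both on log axes, 1 point a library, coloured by group. The injured MRL libraries hold 35.1 to 181 CPM of Il1rl1 at mast cell sums from 0.210 to 102 CPM, and the injured libraries of both strains lie to the right of the uninjured ones for macrophage markers.

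The 8 genes whose log2 CPM followed Il1rl1 most closely over the 16 libraries, among 11048 genes with a mean of at least 5 CPM, were Plk1 (Pearson r = 0.967), Ncaph (0.966), Tubb6 (0.960), Birc5 (0.955), Fam64a (0.952), Sh3bgrl3 (0.952), Tpm3 (0.951) and Ccnb2 (0.948). Plk1, Ncaph, Birc5, Fam64a and Ccnb2 are known from mitosis, and Tubb6, Tpm3 and Sh3bgrl3 from or near the cytoskeleton. Plk1 was at 2.15 ± 2.87, 12.6 ± 8.42, 0.843 ± 0.840 and 26.9 ± 9.73 CPM in C57 tendon before and after injury and MRL tendon before and after injury. These correlations are descriptions over libraries that share the groups and the gene's choice. With Spearman's rho, ties taken at their best rank, 5 of the 8 stayed among the first 8 (ranks 1 to 69 for the 8), and without uninjured C57 replicate 4 there were 4 (ranks 1 to 17). Of the 6 other family genes above that mean, which leaves out Il1a and Il1b, Il1rn came nearest, at rank 934 (r = 0.647), and Il33 was at rank 9046 (r = −0.441).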

How the data were processed

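Reads (single-end, 100 nt) had been cleaned by the authors with Trimmomatic 0.36 and aligned to GRCm38.p5 with STAR 2.5.2b. The authors deposited 1 table of raw counts per gene symbol for 16 libraries, without normalization. The submitters' processing notes name featureCounts of Subread 1.5.0p3. The annotation and strand setting are not given in the sources used here. The labels and the methods name different library kits, of which the latter pre-amplifies RNA, so counting error may understate technical error. Genes, exonic lengths and overlaps came from GENCODE M21 (GRCm38). Groups came from the labels, injured replicate numbers from accession order, and the 4 libraries a group are separate animals according to the methods. No pair of libraries was identical.

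From the deposited counts, CPM were taken over library sizes scaled by TMM. Log2 CPM used a prior count of 2. Each comparison was fitted on its 8 libraries with edgeR 4.0.16 (R 4.3.3): filterByExpr, TMM, robust quasi-likelihood, Benjamini-Hochberg over all genes kept, and a call needed an adjusted p under 0.05 with a log2 fold change beyond 1 either way. The interaction was fitted over 16 libraries and called on adjusted p alone. Alternatives were DESeq2 1.42.0, other size factors, no filter, all 16 libraries in 1 fit, a replicate block, and leaving out libraries. The tests were tested on simulated counts first. The genes and lists were chosen with earlier results of these data known. Named were all 9 genes, up to 6 called genes of a list and comparison by smallest adjusted p, and the 8 genes most correlated with Il1rl1, with others named where a count or a pathway role called for it after values were seen. A gene of the type 2 list is counted but not reported here.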

Additional observations from a re-analysis of the deposited data

Results flagged for a closer look

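In groups of 4 libraries, a library was set aside for a closer look where its gap to the nearest other library, over the group's range, exceeded Dixon's critical value at the 95% level. This was so for 8 of 35 group values with a spread, from 4 libraries. Chance gives about 1 in 20 for normally distributed values, and its rate for CPM with zeros was not computed.

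Uninjured C57 replicate 4, the library with 76742 CPM of keratinocyte markers, was the high one for Il1rl1 (5.20 CPM, others at most 1.01), Il1a (26.5 CPM, others at most 3.02), Il1rn (163 CPM, others at most 11.3) and Il18 (177 CPM, others at most 10.1). The part of keratinocytes in these values was not tested.

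Uninjured C57 replicate 3 was the high one for Il1b (32.3 CPM, others at most 0.195) and held 143 CPM of neutrophil markers, against 0.454 to 19.8 CPM in the other 3 libraries of its group. BI-275 was the high one for Il1rn in injured MRL tendon (40.25 CPM, others 14.8 to 18.8), with 30.5 CPM of neutrophil markers. The part of neutrophils was not tested.

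Uninjured MRL replicate 1 was the only library of its group with Il1b (0.465 CPM, 7 reads) and the low one for Il18 (2.65 CPM, others 4.48 to 4.84). It held 501 CPM of keratinocyte markers, against 17.4 to 52.1 CPM in the others of its group. The part of keratinocytes was not tested.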

How the results depend on the processing

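Counts of called genes other than Il1rl1 changed as follows. In C57 after injury there were 0 by edgeR, 2 by DESeq2, 1 in the fit of all 16 libraries, 1 without the libraries that stand apart (uninjured C57 replicate 4, uninjured MRL replicate 4 and BI-181 together, chosen after seeing the data), and 0 to 1 over the fits that left out 1 library. In MRL there were 2, with 0 in the fit of all 16 libraries and 1 to 2 over the fits that left out 1 library. Between injured strains there were 1, 3 by DESeq2, and 0 to 2 over those fits. For the interaction there were 0, and 1 by DESeq2. Il1rl1 in C57 (log2 fold change 3.82) passed the threshold by DESeq2 (3.87), without uninjured C57 replicate 4 (5.42) and without the libraries that stand apart (5.74), and ranged from 3.33 to 5.42 over the fits that left out 1 library.

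Directions that turned belonged to values that were not called. Without the libraries that stand apart, the C57 log2 fold changes of Il1r2, Il1rn and Il18 were 0.66, 0.47 and 0.97, the uninjured strain differences of Il1rl1 and Il1r1 were 0.43 and −0.16, and the interactions of Il1r2 and Il18 were −0.97 and −0.33. With total counts, the uninjured strain difference of Il1r1 was −0.03 and the interaction of Il1r2 −0.13. Over the fits that left out 1 library, the C57 log2 fold changes were −3.43 to 3.78 for Il1b, −0.06 to 0.29 for Il1r1, −1.34 to 0.46 for Il1r2, −3.33 to 0.35 for Il1rn and −2.61 to 0.70 for Il18. Il1r2 in MRL was −0.56 to 0.85. The uninjured strain differences were −0.04 to 0.45 for Il33 and −0.16 to 0.18 for Il1r1, and Il1rap between injured strains was −0.42 to 0.05. The interactions were −0.62 to 1.21 for Il1r2 and −0.18 to 3.15 for Il18. The cause was not tested, beyond the library left out. Of the other recomputed values, apart from the counts and the C57 value of Il1rl1 given above, 753 kept direction and call, 89 lost a call and 9 gained one.

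The replicate numbers of the uninjured libraries mark different animals, and same-numbered C57 and MRL libraries deviated from their group means with correlations of −0.262, 0.015, −0.104 and −0.233, so the numbers did not pair them. With the number as a replicate block edgeR called 0 of these genes, as without it, and 812 genes of the table against 1106 had an unadjusted p under 0.05. DESeq2 gave no adjusted p for Il1rn and Il18 between uninjured strains.

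With 4 libraries a group of mixed tissue, calls moved with single libraries, and edgeR called 10 to 750 genes in C57 depending on the library left out. Counts near 3 a library limit Il1a, Il1b in uninjured tendon, Il18r1 and the type 2 cytokines.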
